A study of Mus musculus with 12 samples.

Results

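Hyaluronan is a long sugar chain of the extracellular matrix, and the 9 genes described here make it, bind it or break it down. They were chosen by symbol, as the synthases Has1, Has2 and Has3, the receptor Cd44, the binding proteins Tnfaip6 and Vcan, the hyaluronidases Hyal1 and Hyal2, and the depolymerizing protein Cemip. All 9 were found among the 56941 genes counted, and all 9 were among the 14810 genes that passed the filter on low counts. Bulk RNA-seq was performed on the mouse line 3T3-L1, embryonic fibroblasts labelled as wild type, with 3 libraries in each of 4 conditions. The study asked what IL-4 and IL-13 add to the response of fibroblasts to other inflammatory cytokines. Per the study's methods and legends, control cells received no cytokine, IL-4/13 cells received IL-4 and IL-13 at 50 ng/mL each, and Inf cells received 20 ng/mL of TNF-α, 50 ng/mL of IL-17A and 0.5 ng/mL of IL-1β. The IL-4/13 + Inf cells received all 5 cytokines at these doses, and all cells were cultured for 24 hours. The cells are an embryonic line that can form adipocytes, and not primary dermal fibroblasts.

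Hyaluronan synthases sit in the plasma membrane, join UDP-glucuronic acid and UDP-N-acetylglucosamine, and push the growing chain out of the cell. Outside the cell, CD44 holds the chain at the surface, versican is bound along it as a large proteoglycan, and TSG-6, the product of Tnfaip6, moves the heavy chains of inter-alpha-trypsin inhibitor onto it. Hyaluronidases and CEMIP cut the chain, and in skin, where fibroblasts make much of the dermal hyaluronan, its turnover is rapid.

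Total counts ranged from 13446005 to 20775769 per library. The labels do not say whether the libraries came from separate cultures, so p values measure only the spread between these libraries, which may be technical. Inf replicate 3 stood apart from the other Inf libraries, with a chi-square per degree of freedom of 8.05 and 8.35 against them over genes, where the other 10 pairs within a condition lay between 2.25 and 4.57. Values without it are given where they bear on a result. All 8 fibroblast markers passed the filter, with summed levels of 14540 to 16600 CPM for control, 12560 to 13220 for IL-4/13, 10800 to 11950 for Inf and 9173 to 9408 for IL-4/13 + Inf. Of the 8, 6 had their lowest mean in IL-4/13 + Inf. Pdgfra and Pdgfrb did not, with means of 196.1 and 268.9 CPM in control and 233 and 171.8 in IL-4/13. Their means were 384.5 and 480.8 CPM in Inf, and 224.7 and 281.7 in IL-4/13 + Inf. The macrophage markers summed to 3.57 to 8.04 CPM over all libraries, and Tyrobp, Cd3d, Cd3e and Cd3g were at 0 counts in every library. The adipocyte markers Adipoq, Plin1, Cidec and Lep summed to at most 0.18 CPM.

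Promoter sequences were taken from RefSeq (GRCm38.p6), where 7 of the 9 genes had an entry and Has2 and Has3 did not. The 250 bases upstream of each RefSeq start were searched on both strands for an NF-κB consensus, the STAT6-type motif TTCNNNNGAA, the STAT motif TTCNNNGAA, the AP-1 motif TGANTCA and the TATA motif TATAAA. The following stretches are shown for Tnfaip6 and Cemip, the genes that rose in Inf, and for Cd44, the gene with a higher level in both conditions with IL-4/13. They are written 5′ to 3′ on the strand of the gene, with motif matches in capitals.
Tnfaip6: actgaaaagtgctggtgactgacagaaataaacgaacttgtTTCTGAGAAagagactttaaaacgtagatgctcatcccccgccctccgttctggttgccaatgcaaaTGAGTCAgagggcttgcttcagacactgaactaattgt
Cemip: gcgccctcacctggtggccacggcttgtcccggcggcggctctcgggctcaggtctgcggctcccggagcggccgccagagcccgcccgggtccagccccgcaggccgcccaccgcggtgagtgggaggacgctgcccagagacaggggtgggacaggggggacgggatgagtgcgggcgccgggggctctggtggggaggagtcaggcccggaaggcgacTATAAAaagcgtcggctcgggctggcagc
Cd44: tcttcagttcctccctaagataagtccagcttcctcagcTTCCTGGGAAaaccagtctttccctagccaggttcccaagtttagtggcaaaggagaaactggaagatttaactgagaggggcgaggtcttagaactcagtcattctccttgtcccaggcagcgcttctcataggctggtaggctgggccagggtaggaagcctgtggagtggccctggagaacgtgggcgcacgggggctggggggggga
The Tnfaip6 stretch (chr2:52037863-52038008, plus strand) ended at the base before the first annotated start and held a STAT motif match, TTCTGAGAA, at positions −209 to −201 from the RefSeq start and an AP-1 match, TGAGTCA, at −142 to −136. The Cemip stretch (chr7:84086506-84086755, minus strand) held TATAAA at −29 to −24. The Cd44 stretch (chr2:102901666-102901915, minus strand) held the STAT6-type match TTCCTGGGAA at −211 to −202. The NF-κB consensus was found in the Hyal2 window, as GGGAATCCCC at −238 to −229, and not in the other 6 windows. The whole Hyal2 window, which began at chr9:107568913, lay inside the annotated gene, after its first annotated start at 107567945. No motif was found in the windows of Vcan, Has1 and Hyal1, and no matches overlapped each other. Of 32851 mouse promoters of this length, 3.9% held the NF-κB consensus, 5.85% the STAT6-type motif, 7.02% the STAT motif, 6.75% the AP-1 motif and 12.4% TATAAA. These matches describe the letters in the windows, and binding was not measured.

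A gene was called where edgeR's quasi-likelihood test gave an adjusted p (Benjamini-Hochberg) under 0.05 with a log2 fold change of more than 0.25 in either direction. Inf against control called 2 of the 9 genes, Cemip and Tnfaip6, both higher in Inf, where 31.6% of all tested genes were called. IL-4/13 against control called 0 of the 9, with 5.35% of tested genes called. Of the 9, 1 gene, Cd44, passed the adjusted p alone there, 2 genes, Cd44 and Tnfaip6, had an unadjusted p below 0.05 in edgeR's test. DESeq2 called 0 of the 6 genes for which it gave an adjusted p, and gave none for Has1, Has3 and Hyal1. IL-4/13 + Inf against Inf called 2 lower, Cemip and Vcan, where 14.6% were called. When IL-4/13 + Inf was compared with control, 3 were called, Cemip and Tnfaip6 higher and Vcan lower, where 24.9% were called. IL-4/13 + Inf against IL-4/13 called the same 3 genes in the same directions, where 24.3% were called. The median log2 fold change over the 9 genes was 0.06 in Inf against control and −0.18 between IL-4/13 + Inf and Inf, with medians of 0.0073 and −0.0098 over all tested genes. The comparisons share libraries and are therefore not independent.

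**Figure D1:**
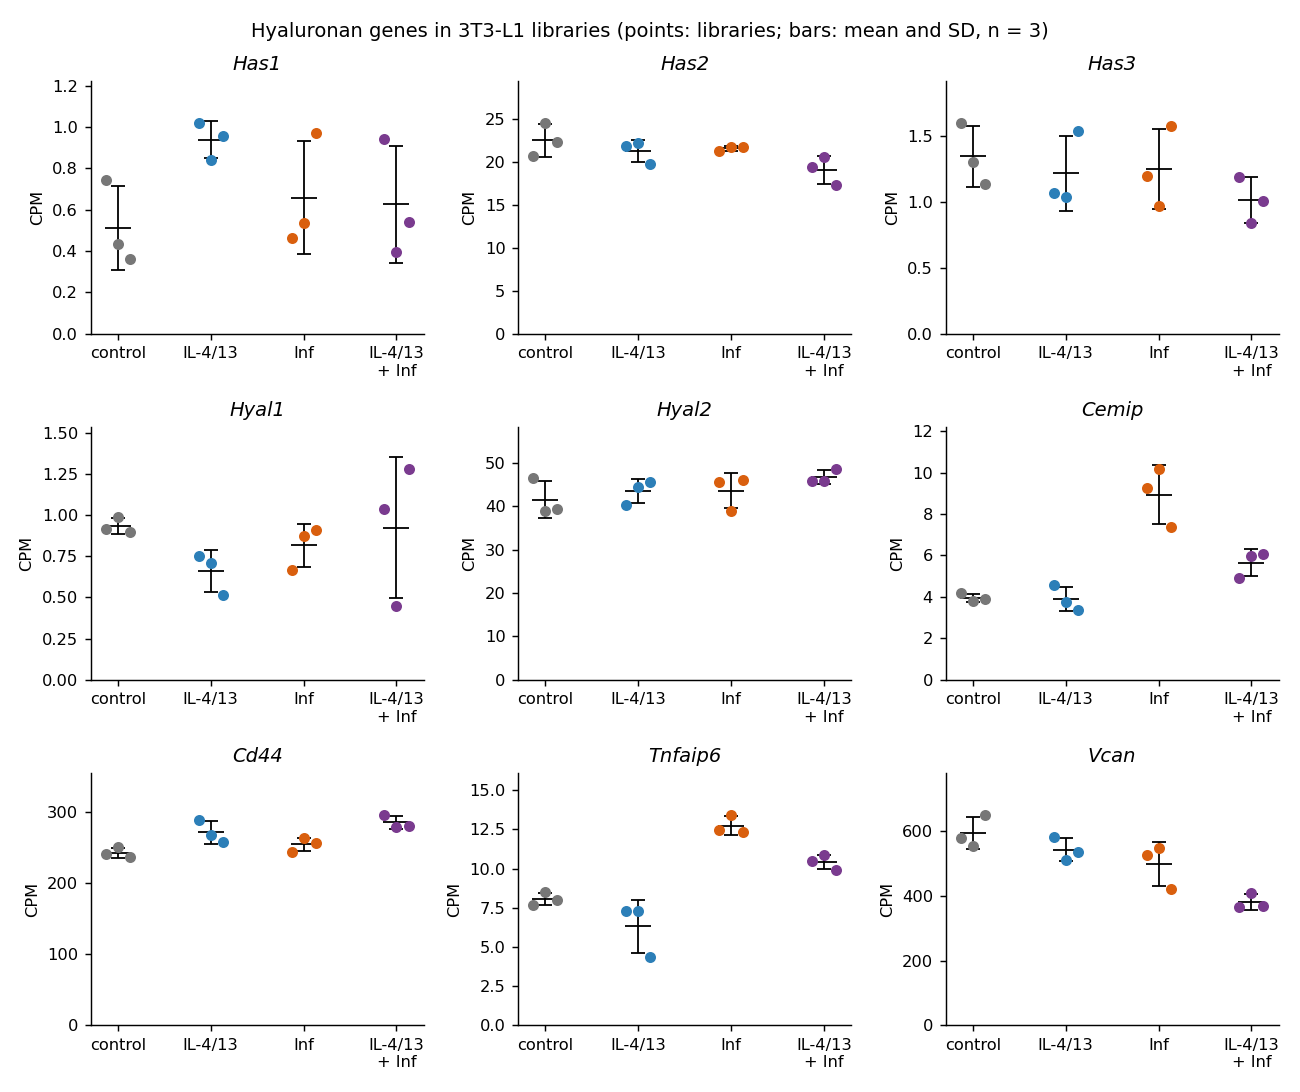
Level of each of the 9 hyaluronan genes in CPM (y axis, from 0, with its own scale for each gene) by condition, with a point for each library and bars for the mean and SD (n = 3). Cemip and Tnfaip6 were highest in the 3 Inf libraries, Vcan was lowest in the 3 IL-4/13 + Inf libraries, and Has2 and Hyal2 lay within narrow ranges of 17.3 to 24.5 and 38.8 to 48.6 CPM.

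Has2 (ENSMUSG00000022367, chr15:56665627-56694539, minus strand, GRCm38), which encodes the synthase of long hyaluronan chains in many mesenchymal cells, supplied nearly all synthase transcript. Its share of the summed RPKM (counts scaled by depth and by kilobases of exon) of the 3 synthases was 94.2% ± 1.75 in control and 92.6% ± 1.33 with IL-4/13 (SD, n = 3 each). With Inf it was 93.8% ± 1.75, and with both sets 93.8% ± 1.81. The control libraries held 20.7, 24.5 and 22.3 CPM of Has2, and the IL-4/13 libraries held 21.8, 22.2 and 19.8. The Inf libraries held 21.3, 21.8 and 21.8 CPM, and the IL-4/13 + Inf libraries 19.4, 20.5 and 17.3. The 3 IL-4/13 + Inf libraries were each below every control library and every Inf library, whereas the control, IL-4/13 and Inf libraries overlapped. Has2 was not called in any comparison, and its log2 fold change was −0.08 ± 0.09 in IL-4/13 against control and −0.06 ± 0.09 in Inf against control (SE). Between IL-4/13 + Inf and control it was −0.23 ± 0.09 (edgeR adjusted p = 0.0435), past the p threshold and short of the fold threshold. It was called with library size alone as the scaling (−0.26, adjusted p = 0.0225), without control replicate 1 (−0.29, adjusted p = 0.0249) and without IL-4/13 + Inf replicate 2 (−0.29, adjusted p = 0.0318). Exons of Has2 overlap those of the antisense gene Has2os by 182 bases, and Has2os had 1 to 11 counts per library.

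Has1 (ENSMUSG00000003665, chr17:17843323-17855205) and Has3 (ENSMUSG00000031910, chr8:106870242-106884566), the other two synthases, were near the lower limit of what was counted. Has1 had 6 to 19 counts and Has3 15 to 28 counts per library. The 3 IL-4/13 libraries held 1.02, 0.842 and 0.956 CPM of Has1, each above the control libraries at 0.743, 0.434 and 0.36, while Inf and IL-4/13 + Inf libraries overlapped control. The log2 fold change of Has1 in IL-4/13 was 0.86 ± 0.45 (SE, edgeR adjusted p = 0.277), and it was not called. Summed over the libraries of a condition, Has1 was at 0.517 CPM in control with a 95% Poisson interval of 0.338 to 0.758, and at 0.943 CPM in IL-4/13 with an interval of 0.688 to 1.26. These intervals cover counting error only. The Has3 libraries overlapped between all conditions, with mean levels of 1.35 CPM for control, 1.22 for IL-4/13, 1.25 for Inf and 1.02 for IL-4/13 + Inf. Has3 exons overlap those of Chtf8, a protein-coding gene on the opposite strand, by 352 bases, which is 5.52% of the Has3 exons. The source of reads in that stretch cannot be told apart without the counting setting for strand.

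Cd44 (ENSMUSG00000005087, chr2:102811141-102901665, minus strand), the main cell surface receptor for hyaluronan, was higher by 12.2% with IL-4/13, whether Inf was present or not. The control libraries held 240.5, 250.6 and 236.2 CPM, and the IL-4/13 libraries 289.3, 268.1 and 257.9. With Inf alone the libraries held 244.2, 263.1 and 256.2 CPM, and with IL-4/13 + Inf 296.2, 279.6 and 280.9. Every library with IL-4/13 was above every control library, and every IL-4/13 + Inf library was above every Inf library, while Inf and control overlapped. The log2 fold change was 0.17 ± 0.05 in IL-4/13 against control (SE, edgeR adjusted p = 0.0215) and 0.17 ± 0.05 in IL-4/13 + Inf against Inf (adjusted p = 0.0086). Both passed the p threshold and were below the fold threshold, so that Cd44 was not called. The first missed the p threshold without control replicate 1 (adjusted p = 0.0926), control replicate 3 (0.11) or IL-4/13 replicate 1 (0.203), and the second without IL-4/13 + Inf replicate 1 (0.0746). The interaction, which compares the responses to IL-4/13 in the presence and absence of Inf, was 0.00012 ± 0.066 on the log2 scale (SE, adjusted p = 1.00). Between IL-4/13 + Inf and control the log2 fold change was 0.24 ± 0.05 (adjusted p = 0.000126), and the gene was called without control replicate 2 (0.26), IL-4/13 + Inf replicate 2 (0.25) or IL-4/13 + Inf replicate 3 (0.25). Gene counts do not separate the splice forms of Cd44.

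Tnfaip6 (ENSMUSG00000053475, chr2:52038009-52056686, plus strand), which encodes the secreted protein TSG-6, rose 1.58-fold in Inf. The control libraries held 7.71, 8.5 and 7.98 CPM, and the Inf libraries 12.5, 13.4 and 12.3. The IL-4/13 libraries held 7.29, 7.32 and 4.34 CPM, and the IL-4/13 + Inf libraries 10.5, 10.9 and 9.92. Every library with Inf was above every library without it, and the IL-4/13 + Inf libraries lay between control and Inf with no overlap with either. The log2 fold change was 0.66 ± 0.13 in Inf against control (SE, edgeR adjusted p = 0.000144) and 0.71 ± 0.14 in IL-4/13 + Inf against IL-4/13 (adjusted p = 0.000192). For IL-4/13 + Inf against control it was 0.37 ± 0.14 (adjusted p = 0.0329). That call was lost without control replicate 1 (adjusted p = 0.104), control replicate 3 (0.0774), IL-4/13 + Inf replicate 1 (0.0807) or IL-4/13 + Inf replicate 2 (0.101). The lower values with IL-4/13 did not pass the test, with log2 fold changes of −0.33 ± 0.15 against control (adjusted p = 0.182) and −0.29 ± 0.13 in IL-4/13 + Inf against Inf (adjusted p = 0.105). IL-4/13 replicate 3 held the lowest value of all libraries, and without it the first of these was −0.14 (adjusted p = 0.644). Without that library, IL-4/13 + Inf against IL-4/13 gave 0.52 (edgeR adjusted p = 0.00289) and was still called.

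Vcan (ENSMUSG00000021614, chr13:89655312-89742509, minus strand), which encodes the proteoglycan versican, fell when IL-4/13 and Inf were combined. The control libraries held 579.4, 554.3 and 651.1 CPM, and the IL-4/13 libraries 581.4, 512.5 and 537.2. The Inf libraries held 525.2, 548.9 and 422.3 CPM, and the IL-4/13 + Inf libraries 365.5, 410.6 and 369.2. The IL-4/13 + Inf libraries were below all 9 others, and the Inf libraries were below every control library but overlapped the IL-4/13 libraries. The log2 fold change in IL-4/13 + Inf was −0.64 ± 0.11 against control (SE, edgeR adjusted p = 0.00106) and −0.51 ± 0.11 against IL-4/13 (adjusted p = 0.00452), and both calls held in all 12 fits that left out a library. Against Inf it was −0.39 ± 0.11 (adjusted p = 0.0278), a call that was lost without Inf replicate 1 (−0.35, adjusted p = 0.097), Inf replicate 2 (−0.31, 0.0808), IL-4/13 + Inf replicate 1 (−0.36, 0.0899) or IL-4/13 + Inf replicate 3 (−0.36, 0.0788), with no filter (−0.38, 0.0618) and with a replicate block (−0.38, 0.0572). Without Inf replicate 3, the lowest Inf library, it was −0.49 (adjusted p = 0.00129).

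Neither cytokine set alone gave a called change of Vcan with all libraries in edgeR. The log2 fold change was −0.13 ± 0.10 in IL-4/13 (SE, adjusted p = 0.564) and −0.25 ± 0.10 in Inf (adjusted p = 0.0828), both against control. The second was called by DESeq2 (−0.26, adjusted p = 0.047) and without Inf replicate 2 (−0.33, adjusted p = 0.0424), and was −0.15 without Inf replicate 3 (adjusted p = 0.174). The interaction was −0.26 ± 0.15 (adjusted p = 0.516), so a joint effect beyond the sum of the single responses was not shown. The summed fibroblast markers were also lowest in IL-4/13 + Inf, at 9173 to 9408 CPM, although Pdgfra and Pdgfrb were above control there by their means. The part of the markers in the Vcan result was not tested. In bulk libraries, fewer cells with a transcript and less of it per cell cannot be told apart.

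Cemip (ENSMUSG00000052353, chr7:83932857-84086502, minus strand), whose product drives the breakdown of high molecular weight hyaluronan in skin fibroblasts, had the largest fold change of the 9 genes among those called. The control libraries held 4.17, 3.78 and 3.9 CPM, and the IL-4/13 libraries 4.55, 3.76 and 3.38. The Inf libraries held 9.24, 10.2 and 7.4 CPM, and the IL-4/13 + Inf libraries 4.91, 5.96 and 6.07. Inf libraries were above all others, the IL-4/13 + Inf libraries were above every control and IL-4/13 library, and the latter conditions overlapped. Cemip rose 2.27-fold in Inf, a log2 fold change of 1.18 ± 0.16 (SE, edgeR adjusted p = 4.17e-07), and fell by 37.4% in IL-4/13 + Inf against Inf, a log2 fold change of −0.67 ± 0.15 (adjusted p = 0.00129). Both calls held in all 12 fits that left out a library. IL-4/13 alone gave −0.01 ± 0.18 (adjusted p = 0.993).

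The level of Cemip in IL-4/13 + Inf was above that without Inf, by 0.51 ± 0.17 on the log2 scale against control (SE, edgeR adjusted p = 0.0201) and 0.51 ± 0.17 against IL-4/13 (adjusted p = 0.02). The first call was lost without control replicate 2 (adjusted p = 0.0626), control replicate 3 (0.0536), IL-4/13 + Inf replicate 2 (0.0742) or IL-4/13 + Inf replicate 3 (0.071). The second was lost without IL-4/13 replicate 2 (0.065), IL-4/13 replicate 3 (0.0878), IL-4/13 + Inf replicate 2 (0.0727) or IL-4/13 + Inf replicate 3 (0.0665). The interaction of Cemip was −0.67 ± 0.24 (SE, adjusted p = 0.13) and did not pass the test, as for the other 8 genes, where 3.11% of all tested genes were called. The unadjusted p of Cemip was 0.00824, the 1 value below 0.05 among the 9 in edgeR's test across all genes. DESeq2 gave no adjusted p for the interaction of Cemip, Has1, Has3 and Hyal1, and called 0 of the other 5. Its log2 value for Cemip was −0.66, with an unadjusted p of 0.0157 in its fit across all genes. Without Inf replicate 3, the lowest of the Inf libraries, the Cemip interaction was −0.79 (adjusted p = 0.0439) and was called.

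Hyal2 (ENSMUSG00000010047, chr9:107567945-107572779, plus strand), which encodes a hyaluronidase anchored at the cell surface, gave most of the transcript of the 3 degrading genes. Its share of their summed RPKM was 95.6% ± 0.34 in control and 96.4% ± 0.784 with IL-4/13 (SD, n = 3 each). With Inf it was 93.3% ± 1.34, and with both sets 95.3% ± 0.6. Cemip took 2.46% ± 0.121, 2.35% ± 0.5, 5.21% ± 1.2 and 3.1% ± 0.307 in the same order. These are shares of transcript and not of activity. The control libraries held 46.4, 38.8 and 39.3 CPM of Hyal2, and the IL-4/13 + Inf libraries 45.7, 45.9 and 48.6. The IL-4/13 and Inf libraries ranged from 38.9 to 46.1 CPM, and control overlapped all conditions. Hyal2 was not called in any comparison, with log2 fold changes of 0.06 ± 0.08 for IL-4/13, 0.06 ± 0.08 for Inf and 0.17 ± 0.08 for IL-4/13 + Inf against control (SE). The last was called only without control replicate 1 (0.26, edgeR adjusted p = 0.0163).

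Hyal1 (ENSMUSG00000010051, chr9:107576927-107581710, plus strand), which encodes a lysosomal hyaluronidase, had 7 to 21 counts per library. The libraries held 0.9 to 0.992 CPM for control, 0.514 to 0.75 for IL-4/13, 0.665 to 0.909 for Inf and 0.45 to 1.28 for IL-4/13 + Inf. The IL-4/13 libraries were each below control, and the log2 fold change of −0.48 ± 0.41 did not pass the test (SE, edgeR adjusted p = 0.57). The count of Hyal1 is uncertain, because 63.2% of the 50-base stretches of its longest transcript occur in other genes and 1920 bases of its exons overlap Naa80 on the same strand, a gene with 78 to 179 counts per library. The other 8 genes shared 0% of such stretches.

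**Figure D2:**
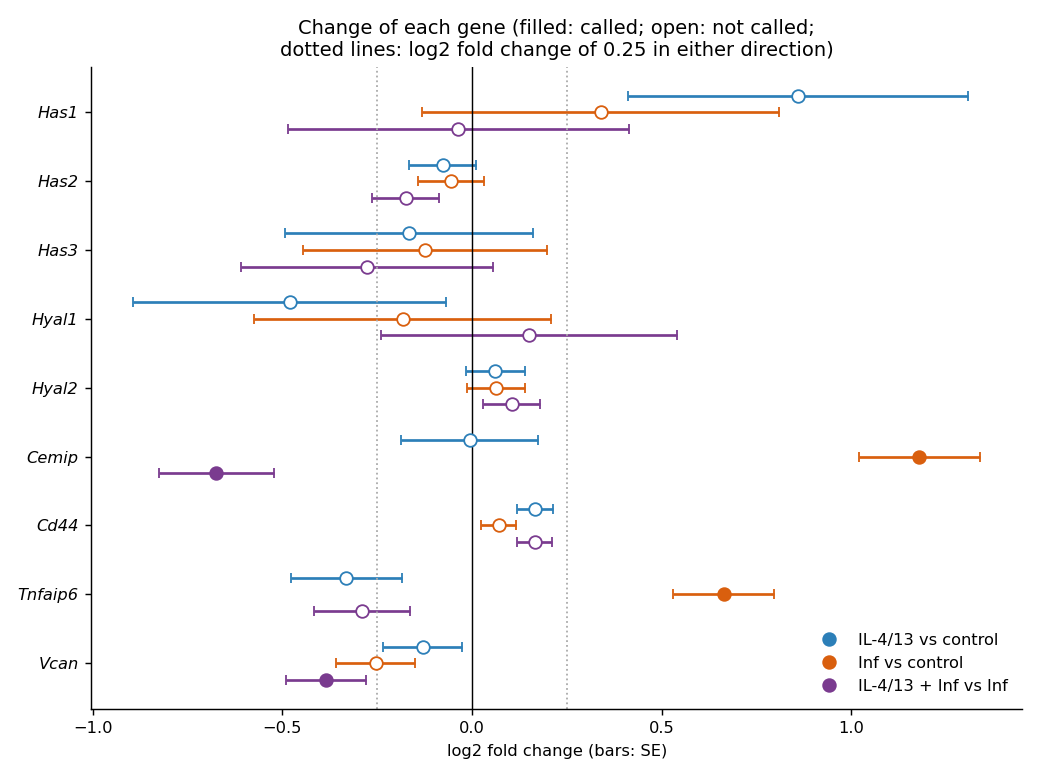
Log2 fold change of each gene (x axis, with SE bars) for 3 comparisons, namely IL-4/13 with control, Inf with control, and IL-4/13 + Inf with Inf, with filled points where the gene was called. Cemip is filled at 1.18 in Inf against control and at −0.67 in IL-4/13 + Inf against Inf, and the intervals of Has1, Has3 and Hyal1 are wide.

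Between genes, levels were compared as RPKM over the union of annotated exons. In control the order was Vcan at 41.1, Cd44 at 35.8, Hyal2 at 12.6, Has2 at 5.31 and Tnfaip6 at 4.72 RPKM, followed by Cemip at 0.323, Hyal1 at 0.248, Has3 at 0.211 and Has1 at 0.113. Has2 and Tnfaip6 overlapped between libraries, as did Hyal1 and Has3, and the other neighbours were separate. When both cytokine sets were present, Cd44 was first at 42.1 RPKM and Vcan second at 26.4, without overlap, whereas in IL-4/13 and in Inf the libraries of these genes overlapped. Tnfaip6 stood above Has2 in Inf, at 7.46 against 5.1 RPKM, and in IL-4/13 + Inf, at 6.1 against 4.5. In control their libraries overlapped and in IL-4/13 Has2 was higher, at 5.02 against 3.69 RPKM. The annotated exons of Cemip cover 12232 bases and its longest transcript 7111, so its level per length depends on this choice. The order of Vcan and Cd44 in control depends on it too. Their exons cover 14462 and 6776 bases, and their longest coding sequences 10062 and 2340. Per coding base, Cd44 would stand above Vcan in control as well.

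**Figure D3:**
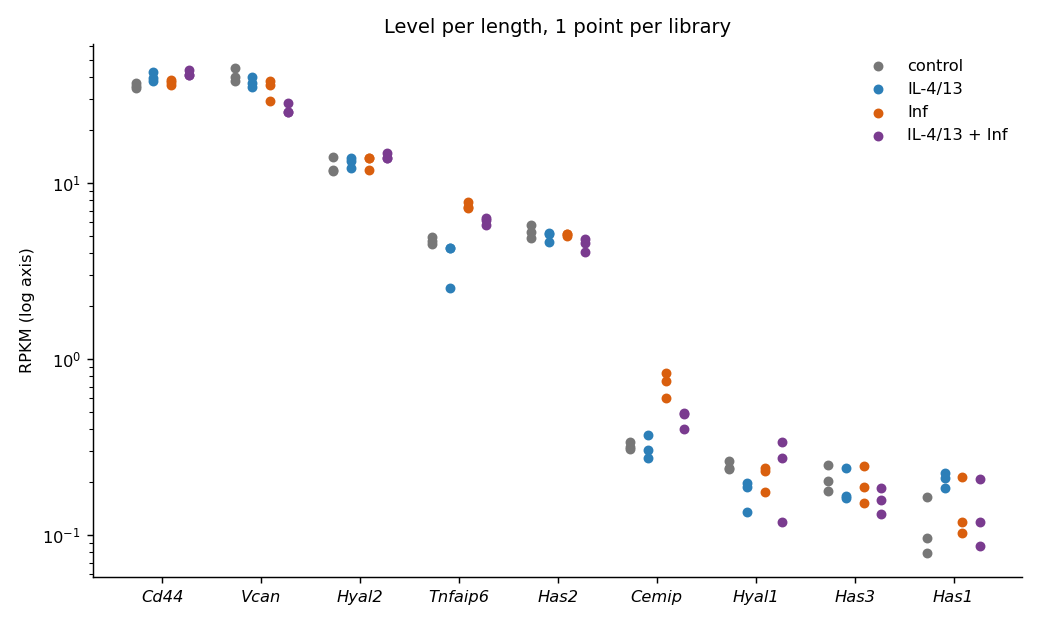
RPKM of each gene (y axis, log scale) in the 12 libraries, coloured by condition, with a point for each library. Cd44 and Vcan lie above 25 RPKM in every library, and Cemip, Hyal1, Has3 and Has1 below 0.84 RPKM.

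The genes around the 9 were read from 6 lists of 52 genes, of which 31 were tested. The list for the UDP-sugar building blocks of hyaluronan held 10 genes, all tested. It includes Uxs1, which uses UDP-glucuronic acid and does not make it. In Inf against control 3 of the 10 rose and 1 fell, with a list median of 0.17 on the log2 scale. The 40% called compares with 31.6% of all tested genes, whose median was 0.0073. Gfpt2, an enzyme at the first step of the hexosamine pathway, rose from 3.15 ± 0.373 to 5.54 ± 0.669 CPM (SD, n = 3), a log2 fold change of 0.82 ± 0.19 (SE, edgeR adjusted p = 0.00091). Gfpt1, the other gene of that step, was far higher, at 148 ± 1.87 CPM in control and 162 ± 11.7 in Inf (SD, n = 3). With both cytokine sets Gfpt1 was at 158.3 ± 2.18 CPM, and it was not called in any of the 6 contrasts. In Inf against control it passed the p threshold alone, at 0.13 (edgeR adjusted p = 0.0302). Gpi1, a glycolytic isomerase, rose by 0.61, and Uxs1, which turns UDP-glucuronic acid into UDP-xylose, fell by 0.38. In IL-4/13 + Inf against Inf 2 of the 10 fell, Gfpt2 by 0.70 (adjusted p = 0.007) and the N-acetylglucosamine kinase Nagk by 0.46 (adjusted p = 1.72e-05), where 14.6% of all tested genes were called in either direction. Ugp2, which makes UDP-glucose, rose by 0.32 in IL-4/13 against control, the single call of this list there, where 5.35% of all tested genes were called. Ugdh, which makes UDP-glucuronic acid, was not called in any of the 6 contrasts. In IL-4/13 + Inf it passed the p threshold and fell short of the fold threshold. Its log2 fold change there was −0.15 against control (edgeR adjusted p = 0.00804) and −0.21 against IL-4/13 (adjusted p = 0.000332).

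Among the other binding proteins and receptors, 4 of 14 genes were tested. Hmmr, which encodes the hyaluronan-binding and mitotic spindle protein RHAMM, rose by 0.35 in IL-4/13 against control, fell by 0.33 in Inf against control, and rose by 0.44 in IL-4/13 + Inf against Inf on the log2 scale. Layn, which encodes the receptor layilin, rose by 0.27 in IL-4/13. Habp4, an intracellular RNA-binding protein named for hyaluronan binding, fell by 0.34 in Inf. Lyve1, Stab1 and Stab2, receptors of lymphatic and sinusoidal endothelium, had at most 9 counts in any library and were not tested. Of the 7 partners of TSG-6, Ptx3 and Itih2 were tested. Ptx3, a pentraxin that binds TSG-6 in hyaluronan matrix, rose from 33.4 ± 1.32 CPM in control to 148 ± 15 in Inf (SD, n = 3), a log2 fold change of 2.15 ± 0.07 (SE, edgeR adjusted p = 6.96e-22). It fell with IL-4/13, by 0.37 against control and by 0.62 in IL-4/13 + Inf against Inf. The bikunin gene Ambp had 0 counts in every library.

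Of the 9 other degradation genes, 4 were tested. Cemip2, a related transmembrane protein described as a hyaluronidase, rose in Inf from 41.1 ± 0.922 to 67.3 ± 9.57 CPM (SD, n = 3), a log2 fold change of 0.71 ± 0.07 (SE, edgeR adjusted p = 5.5e-09). With both cytokine sets it was at 70.6 ± 3.25 CPM, and the log2 fold change against Inf was 0.07 ± 0.07 (adjusted p = 0.548). Cemip had −0.67 in that comparison, and the difference between the genes was not tested. Hexa, which encodes a lysosomal enzyme subunit, fell by 0.35 in IL-4/13 + Inf against Inf.

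Of the 6 proteases listed for cutting versican, 5 were tested, and in Inf against control 2 rose and 2 fell, where 31.6% of all tested genes were called in either direction. Adamts4 rose by 1.72 and Adamts9 by 1.44 on the log2 scale, while Adamts1 fell by 1.37 and Adamts5 by 0.83. In IL-4/13 + Inf against Inf 3 of the 5 rose, Adamts1 by 0.80, Adamts9 by 0.70 and Adamts5 by 0.54, where 14.6% were called. Adamts9 reached 83.4 ± 1.18 CPM in IL-4/13 + Inf, against 51.4 ± 9.03 in Inf and 18.9 ± 2.86 in control (SD, n = 3). Adamts15 rose by 1.75 in IL-4/13 against control, on 12 to 15 counts per library against 4 to 5. Protein cleavage was not measured.

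All 6 genes for cutting CD44 or linking it to the cytoskeleton were tested. Ezr, the membrane linker ezrin, rose from 112.7 ± 2.12 to 187.6 ± 7.34 CPM in IL-4/13 (SD, n = 3), a log2 fold change of 0.73 ± 0.05 (SE, edgeR adjusted p = 1.41e-12). It reached 258.9 ± 13 CPM in IL-4/13 + Inf, against 118.3 ± 5.04 in Inf, a log2 fold change of 1.13 ± 0.05 (adjusted p = 2.97e-17). The membrane protease Mmp14 fell by 0.31 in IL-4/13 against control and by 0.39 in IL-4/13 + Inf against Inf, and the sheddase Adam17 rose by 0.69 in Inf. Rdx, the linker radixin, fell by 0.36 in Inf. Msn, the linker moesin, had the highest level of these linkers and was not called in any contrast. In IL-4/13 + Inf it passed the p threshold and fell short of the fold threshold. The log2 fold change was 0.21 against control (edgeR adjusted p = 3.89e-05), 0.15 against IL-4/13 (0.00171) and 0.10 against Inf (0.0391). The same held for Msn in Inf against control, at 0.10 (adjusted p = 0.0271). Its mean was 1055 ± 7.17 CPM in control and 1217 ± 10.6 in IL-4/13 + Inf (SD, n = 3).

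**Figure D4:**
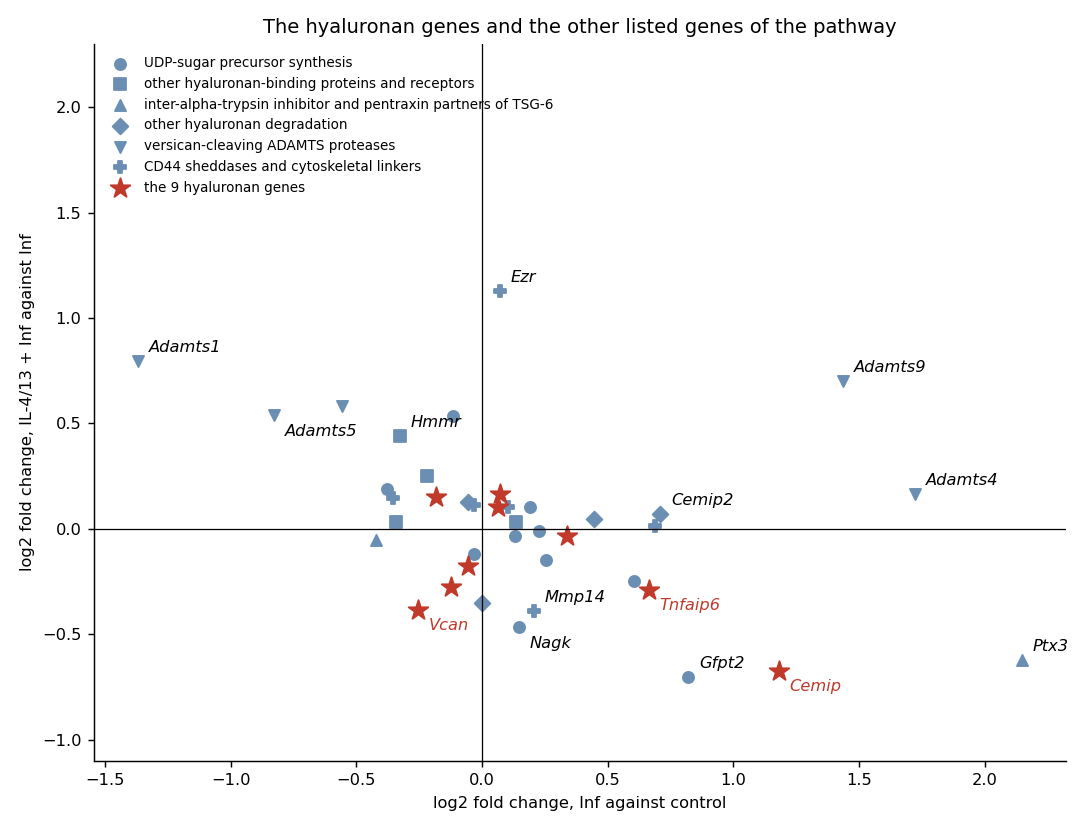
Log2 fold change in Inf against control (x axis) and between IL-4/13 + Inf and Inf (y axis), 1 point per gene, for the 9 hyaluronan genes (stars) and the 31 tested genes of the 6 lists (shapes by list). The axes share the Inf libraries, so the position of a point is no independent comparison. Cemip, Gfpt2 and Ptx3 lie to the lower right, and Adamts9 to the upper right.

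The pattern of each gene over the 12 libraries was set beside that of all other tested genes with a mean of at least 5 CPM, by Pearson's r of log2 CPM. The libraries share conditions, and r is given as a description. The closest genes to Cemip were Atp2b1 at 0.97 and Slc25a37 at 0.96, those to Tnfaip6 were Ehd3 at 0.96 and Plscr2 at 0.95, and those to Vcan were Smad3 at 0.97 and Magi1 at 0.97. Cd44 was closest to Zcchc4 at 0.96 and Alg13 at 0.93, Has2 to Anapc4 at 0.91 and Pard6g at 0.88, and Hyal2 to Smim8 at 0.89 and Asrgl1 at 0.88. For the genes with few counts the closest were Ccdc66 at 0.91 and Gm14253 at 0.82 for Has1, Tpd52l1 at 0.85 and Ndufb10 at 0.83 for Has3, and Magef1 at 0.82 and Mrpl4 at 0.82 for Hyal1. Between Cemip and Tnfaip6, r was 0.86.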

How the data were processed

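The authors deposited raw counts, whole numbers of reads per gene, for 12 polyadenylated, stranded mRNA libraries of 3T3-L1 cells. The submitters' processing notes name STAR, featureCounts and GRCm39. Their versions, the annotation and the strand setting are not given in the sources used here.

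Counts were filtered with edgeR's filterByExpr (minimum count 10, minimum total count 15), scaled by TMM and fitted by robust quasi-likelihood with a term for each condition in all 12 libraries (R 4.3.3, edgeR 4.0.16, limma 3.58.1). The SE is the log2 fold change divided by the square root of F. P values were adjusted by Benjamini-Hochberg within each contrast over 14810 genes. The study names DESeq2 for these libraries; here DESeq2 1.42.0 was an alternative. The thresholds of 0.05 and 0.25 are those the study gives for its pseudobulk analysis. CPM used effective library sizes, and log2 CPM a prior count of 2. Gene positions and lengths came from GENCODE M21 (GRCm38), which is not the build of the counts. Tables and figures used matplotlib 3.10.9, numpy 2.4.6, pandas 2.3.3 and Python 3.11.15. The fits were tested on simulated data.

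The 9 genes and the lists were chosen with earlier results of these data known. Genes of the lists were named where called in IL-4/13 + Inf against Inf or among the 3 largest called changes of their list in Inf or IL-4/13 against control, and for each of the 9 genes the 2 genes with the highest r were named. The values of 1 listed gene are not reported here. Ugdh, Gfpt1, Msn, Itih2, Ambp and the untested receptors were named after their values were seen. Alternatives were DESeq2, scaling by its size factors or by library size alone, a mean of 50 counts or no filter, only the compared groups, a replicate block, each library left out, fold thresholds of 0 and 1, an adjusted p of 0.01, and coding length for shares. Depth was 13446005 to 20775769 counts per library, and with 3 libraries per condition the genes under 30 counts had SEs of 0.32 or more on the log2 scale.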

Additional observations from a re-analysis of the deposited data

Results flagged for a closer look

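The difference between the responses to IL-4/13 in cells with and without Inf, called the interaction, passed edgeR's quasi-likelihood test for 4 of the 31 tested genes of the surrounding lists, where 3.11% of all tested genes were called. Adamts1 had an interaction of 0.64 on the log2 scale (adjusted p = 2.38e-05), with log2 fold changes with IL-4/13 of 0.15 without Inf and 0.80 with it. Ezr had 0.40 (adjusted p = 0.000395), with log2 fold changes of 0.73 and 1.13. Adamts5 had 0.31 (adjusted p = 0.0263), with 0.23 and 0.54. For Ugp2 the interaction was −0.33 (adjusted p = 0.0115), with 0.32 without Inf and −0.01 with it. Inf replicate 3 held the lowest Inf level of Adamts1, Ezr and Adamts5 and the highest of Ugp2. The interactions of these genes were not examined without that library. None of the 9 hyaluronan genes was called for such a difference in the edgeR fit of all libraries. DESeq2 called 0 of the 5 for which it gave an adjusted p, and gave none for Cemip, Has1, Has3 and Hyal1. In the edgeR fit across all genes, the unadjusted p was below 0.05 for 1 of the hyaluronan genes, Cemip.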

How the results depend on the processing

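No call of the 9 genes reversed. The number called in IL-4/13 + Inf against Inf fell from 2 to 1 with no filter, with a replicate block and at an adjusted p of 0.01, and lay between 1 and 2 when a library was left out. In IL-4/13 + Inf against control it was 1 at an adjusted p of 0.01 and lay between 1 and 4 when a library was left out (1 without control replicate 3). With a fold threshold of 0, 1 gene was called in IL-4/13 against control and 5 in IL-4/13 + Inf against control, and with a threshold of 1, 1 gene in Inf against control and 0 in IL-4/13 + Inf against control, Inf or IL-4/13. The interaction count lay between 0 and 1 over the libraries left out. With coding length, Has2 held 92.4% of synthase RPKM in control and 91.0% in IL-4/13. Same-numbered libraries had deviations from their condition's mean correlated from −0.146 to 0.0543 over 18 pairs. Pairs with different numbers ranged from −0.109 to 0.16. These values cannot show whether same-numbered libraries were made together. The replicate block changed no other call of the 9 genes. Among single genes, 340 values kept their side of the threshold under other tools, scalings, filters, samples or the block, 2 lost and 2 gained a call. With a library left out 624 kept it, 16 lost and 8 gained a call. Of all kept values, 28 were uncalled in both fits with the other sign. Adjusted p values that DESeq2 gave as missing were left out.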
